A study of Mus musculus with 9 samples.

Results

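The genes described here are the 10 cell cycle inhibitors that act on cyclin-dependent kinases (CDKs) or through the retinoblastoma (RB) pocket, and they were taken by name: the CIP/KIP genes *Cdkn1a*, *Cdkn1b* and *Cdkn1c*, the INK4 genes *Cdkn2a*, *Cdkn2b*, *Cdkn2c* and *Cdkn2d*, and the pocket protein genes *Rb1*, *Rbl1* and *Rbl2*. They are 10 of 22367 protein-coding genes in the GENCODE M1 annotation of the mouse genome (mm9). BAP1, a deubiquitinase that removes ubiquitin from histone H2A, was mapped by ChIP-Seq in Ba/F3, a mouse B cell precursor line that grows on IL-3. One immunoprecipitation used an anti-BAP1 antibody (52.8 μg) on wild type cells, and the other used anti-FLAG (5 μg) on a Ba/F3 line stably expressing 3xFLAG-tagged murine BAP1. Both were deposited as 1 list of 13164 peaks, each 200 bp wide, with no height, score or p-value. The H2AK119ub samples (3, from wild type and *Bap1* knockout clones) and the input DNA samples (4) were not analysed here. The depth is unknown and each immunoprecipitation was sequenced once, so no value below has a replicate error and no test was run.

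As background, CIP/KIP proteins bind cyclin-CDK complexes of several kinds, whereas INK4 proteins bind the D-type cyclin kinases CDK4 and CDK6. Active CDKs phosphorylate the pocket proteins, which otherwise hold E2F factors and keep cell cycle genes off. In B cell precursors, bursts of division alternate with arrest for rearrangement of the immunoglobulin genes. Some of these inhibitors take part in that switch.

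Peaks counted as gene-proximal where the middle was no more than 1 kb from a transcription start site (TSS) of the gene. A peak described as at the TSS of another gene was likewise within 1 kb of it. Distances are signed, with negative values upstream of the TSS on the gene's strand. Of the 10 genes, 7 had a gene-proximal peak, beside 39.6% of all protein-coding genes (8850 of 22367, 95% Wilson interval 38.9 to 40.2%, counting error only). A comparison limited to genes with CpG-rich promoters is given further below. The 7 were *Cdkn1a*, *Cdkn1b*, *Cdkn2c*, *Cdkn2d*, *Rb1*, *Rbl1* and *Rbl2*, with 9 gene-proximal peaks between them. *Cdkn1c*, *Cdkn2a* and *Cdkn2b* had none. By role, 2 of 3 CIP/KIP genes, 2 of 4 INK4 genes and 3 of 3 pocket protein genes had one. The share was 23.8% of genes with 1 TSS, 40.7% with 2 to 3 and 61.6% with 4 or more. More TSSs give more chances to be counted, but whether this accounts for the difference was not tested. By the start of the longest transcript alone, the share of all protein-coding genes was 37.6%. *Rb1*, *Rbl1* and *Rbl2* had 6, 4 and 7 TSSs, and each had a peak, also by the start of the longest transcript alone. Of the 4 genes with 1 TSS, *Cdkn1b* and *Cdkn2d* had a peak and *Cdkn1c* and *Cdkn2b* had none.

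**Figure D1:**
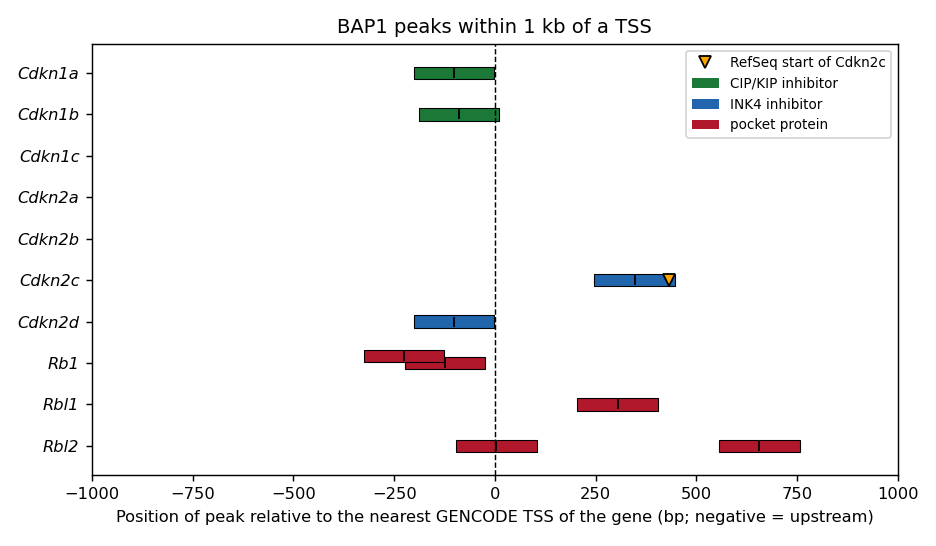
BAP1 peaks within 1 kb of a TSS of each gene, as bars of 200 bp with a tick at the middle, against the distance in bp from the nearest GENCODE TSS (dashed line; each peak of a gene is drawn from its own nearest TSS). The triangle marks the RefSeq start of *Cdkn2c* at 109339361. Its other RefSeq start, at 109337977, is not drawn. The rows of *Cdkn1c*, *Cdkn2a* and *Cdkn2b* are empty, *Rb1* has 2 overlapping bars, and the bars of *Rbl1* and *Cdkn2c* lie downstream of the line.

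The DNA under the peaks is shown first for the genes with a peak just upstream of the start, the position of 4 of the 7 genes. All sequences are from the mm9 genome, on the gene's strand, 5′ to 3′. Capitals mark letters of the motifs searched, here SP1 (GGGCGG), NF-Y (CCAAT) and E2F (TTTCCCGC, TTTCGCGC, TTTGCCGC or TTTGGCGC), each read on both strands, and neighboring or overlapping matches run together. The lines are the peaks of *Cdkn1a* (chr17:29230517-29230716, plus strand), *Cdkn1b* (chr6:134870231-134870430, plus strand) and *Cdkn2d* (chr9:21095656-21095855, minus strand), and the *Rb1* peak nearest the start, extended to 30 bases of the transcript (chr14:73725600-73725853, minus strand).
Cdkn1a peak: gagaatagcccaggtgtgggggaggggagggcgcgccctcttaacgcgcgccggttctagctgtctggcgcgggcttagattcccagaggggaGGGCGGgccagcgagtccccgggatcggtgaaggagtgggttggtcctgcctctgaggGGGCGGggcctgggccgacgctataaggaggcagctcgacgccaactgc
Cdkn1b peak: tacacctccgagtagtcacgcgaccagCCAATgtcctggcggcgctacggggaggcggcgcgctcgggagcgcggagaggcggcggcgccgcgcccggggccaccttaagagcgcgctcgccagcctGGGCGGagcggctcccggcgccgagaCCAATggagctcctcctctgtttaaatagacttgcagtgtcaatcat
Cdkn2d peak: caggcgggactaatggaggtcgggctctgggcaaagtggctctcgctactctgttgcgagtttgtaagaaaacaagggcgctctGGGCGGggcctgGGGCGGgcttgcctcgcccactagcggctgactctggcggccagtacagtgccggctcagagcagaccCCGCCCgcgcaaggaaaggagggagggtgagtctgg
Rb1 peak and start: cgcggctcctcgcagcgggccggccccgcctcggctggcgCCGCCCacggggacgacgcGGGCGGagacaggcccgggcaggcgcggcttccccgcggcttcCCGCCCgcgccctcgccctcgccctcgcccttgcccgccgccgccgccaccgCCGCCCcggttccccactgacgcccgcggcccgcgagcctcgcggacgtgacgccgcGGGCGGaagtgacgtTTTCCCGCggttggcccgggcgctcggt

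*Cdkn1a* encodes p21, the CDK inhibitor induced by p53. The gene (ENSMUSG00000023067.7, chr17:29227924-29237667, plus strand) has 3 annotated TSSs, and BAP1 was listed at 1 of them. The peak lay at -101 bp from the TSS of Cdkn1a-001 (29230717) and overlapped no exon. The other starts, of Cdkn1a-003 at 29227924 and Cdkn1a-002 at 29235152, had their nearest peaks at 2692 and -2627 bp. A further peak lay at 1808 bp in an intron, and others at -10.1 and -11.8 kb. The last of these was within 1 kb of a TSS of Gm16197, a non-coding RNA gene. With 4 peaks within 50 kb, *Cdkn1a* was above the upper quartile of protein-coding genes, which had a median of 1 peak (quartiles 0 and 3).

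*Cdkn1b* encodes p27, the CIP/KIP inhibitor that accumulates in resting lymphocytes. Its gene (ENSMUSG00000003031.8, chr6:134870419-134875531, plus strand) has 1 TSS, and the peak at -89 bp covered it. The SP1 letters began at -61 bp from the TSS, and the NF-Y letters at -161 and -35 bp. A pair of peaks 386 bp apart lay beyond the 3′ end of the gene, at 8052 and 8438 bp from the TSS and farther than 1 kb from every annotated TSS. Another peak, at -22.0 kb, was at the TSS of *Gpr19*, a G protein-coupled receptor gene.

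*Cdkn1c* encodes p57, the imprinted member of the CIP/KIP group. The gene (ENSMUSG00000037664.6, chr7:150644255-150646955, minus strand) had no peak within 50 kb. It was 1 of 8318 protein-coding genes (37.2%) of which this was true. Its nearest peak was at -88025 bp, and the interval between the peaks on either side of the gene was 252 kb. Across the list, 16.4% of 13143 intervals between neighboring peaks were as long, and the median was 42.4 kb.

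**Figure D2:**
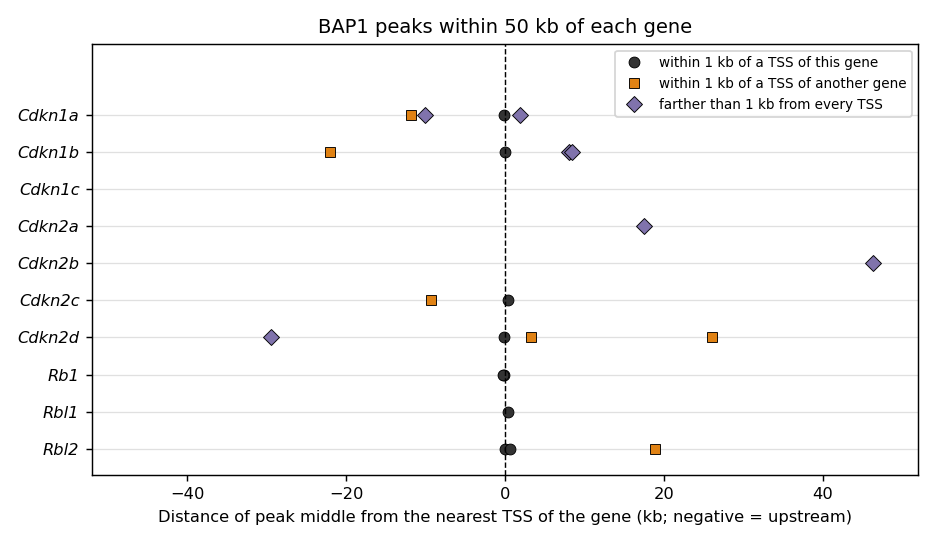
All BAP1 peaks within 50 kb of a TSS of each gene, against the signed distance in kb from the nearest TSS of that gene. Circles are within 1 kb of a TSS of the gene, squares within 1 kb of a TSS of another gene, and diamonds farther than 1 kb from every TSS. *Cdkn1c* has no symbol, *Cdkn2a* and *Cdkn2b* share 1 peak, and *Rb1* and *Rbl1* have no peak beyond those at the start.

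*Cdkn2a* and *Cdkn2b* lie side by side on chromosome 4. *Cdkn2a* (ENSMUSG00000044303.5, chr4:88920377-88940557, minus strand) encodes p16 and, from a separate first exon, the p53 activator ARF. *Cdkn2b* (ENSMUSG00000073802.4, chr4:88952198-88956941, minus strand) encodes p15. The start of the p16 transcript (88928096) and that of the Arf transcript (88940523) lie apart, by 12461 bp when measured to the farther Arf start at 88940557. No peak was listed in the 36.6 kb from one end of this gene pair to the other. The pair sits in an interval of 173 kb between neighboring peaks, and 21.5% of intervals were as long. Of the 3 starts of *Cdkn2a*, none had a peak nearer than 17415 bp.

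The nearest peak of both genes was the same one, 17415 bp downstream of the p16 start and 46260 bp downstream of the *Cdkn2b* start, and farther than 1 kb from every annotated TSS. Without this peak, neither *Cdkn2a* nor *Cdkn2b* would have a peak within 50 kb. Whether the reads behind it were placed uniquely was not tested.

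Starts of *Cdkn2a* and *Cdkn2b*, which had no peak, are shown for comparison, each as 170 bases before the start and 30 bases from it on: the Arf start (chr4:88940528-88940727), the p16 start (chr4:88928067-88928266) and *Cdkn2b* (chr4:88956912-88957111), all on the minus strand. Besides the motifs above, capitals mark letters of CREB (TGACGTCA) and of the cell cycle homology region, or CHR, on either strand. The CHR was searched in its usual form, TTTGAA, which is the one found in these windows. It was also searched in the variant form TTCGAA.
Cdkn2a Arf start: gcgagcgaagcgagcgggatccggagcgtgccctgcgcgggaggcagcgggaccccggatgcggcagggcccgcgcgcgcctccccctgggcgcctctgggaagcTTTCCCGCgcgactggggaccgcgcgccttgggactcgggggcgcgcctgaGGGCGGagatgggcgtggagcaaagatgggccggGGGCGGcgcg
Cdkn2a p16 start: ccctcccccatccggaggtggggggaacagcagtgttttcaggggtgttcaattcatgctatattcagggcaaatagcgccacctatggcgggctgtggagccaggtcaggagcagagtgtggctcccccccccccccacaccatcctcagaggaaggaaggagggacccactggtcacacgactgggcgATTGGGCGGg
Cdkn2b start: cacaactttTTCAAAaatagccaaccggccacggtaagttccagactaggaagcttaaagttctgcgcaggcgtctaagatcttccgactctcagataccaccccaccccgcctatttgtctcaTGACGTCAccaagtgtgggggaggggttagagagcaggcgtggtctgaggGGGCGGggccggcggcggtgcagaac

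SP1 letters, also found under peaks, were in all 3 windows, beside 40.5% of the same windows over 22367 protein-coding genes. The printed Arf start (88940557) held E2F letters at -65 bp, which is -99 bp from the other Arf start at 88940523 (1.94%). *Cdkn2b* held the CREB letters at -46 bp (2.15%) and CHR letters at -161 bp (11.2%). The p16 start held overlapping NF-Y (29.7%) and SP1 letters at 20 and 23 bp downstream of the TSS. Among other starts without a peak, the window of Cdkn1a-003 had none of the motifs searched. Those of Cdkn1a-002 and Cdkn2c-002 had NF-Y letters and no SP1 letters. The remaining starts without a peak, that of *Cdkn1c* included, are not reported here.

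*Cdkn2c* encodes p18, an INK4 protein expressed widely in lymphoid cells. The gene (ENSMUSG00000028551.8, chr4:109333481-109339794, minus strand) had 1 gene-proximal peak, chr4:109339348-109339547, at 347 bp downstream of the TSS of Cdkn2c-001, within its annotated 5′ untranslated exon. Among protein-coding genes with a gene-proximal peak, 2.51% (222 genes) had the nearest one more than 300 bp downstream. The position depends on the start it is measured from. RefSeq promoter sequences matched the genome at 2 starts. From the one at 109339361, which GENCODE does not have, the same peak lay at -86 bp. From the one at 109337977, which GENCODE also has as Cdkn2c-002, it lay at -1470 bp. Part of the peak, chr4:109339387-109339416, is printed for its neighboring SP1 letters, which began at -51 and -40 bp from the RefSeq start.
Cdkn2c stretch of the peak: cgttGGGCGGggcgtGGGCGGggcccggcc

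The whole peak had 78.5% GC and 28 CpGs, both above the upper quartiles of 72.5% and 24 over 10073 gene-proximal peaks. The other peak within 50 kb, at -9406 bp, was at the TSS of *Faf1*, which encodes a FAS-associated factor.

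*Cdkn2d* encodes p19, the remaining INK4 protein. Its gene (ENSMUSG00000066860.6, chr9:21092907-21095653, minus strand) has 1 TSS, and the peak at -102 bp ended just upstream of it. Of the 3 other peaks within 50 kb, those at 3197 and 25975 bp were at the TSSs of *Kri1* and *Atg4d*, the latter an autophagy protease gene. The peak at -29.5 kb was at no annotated TSS.

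*Rb1* encodes RB, the founding pocket protein. The gene (ENSMUSG00000022105.6, chr14:73583480-73725629, minus strand) had 2 peaks, with middles at -124 and -226 bp from the TSS of Rb1-001. They were 102 bp apart and shared 98 bp. No other peak lay within 50 kb of any of its 6 TSSs, and none was listed through the gene body, which falls in an interval of 182 kb. The nearer peak had 85.0% GC and 39 CpGs, the highest of the 9 gene-proximal peaks on both measures. It held 4 matches to the SP1 letters and none to E2F. E2F letters began 2 bp downstream of the TSS, outside the peak, as the printed sequence shows.

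*Rbl1* encodes p107, a pocket protein made mainly in dividing cells. The gene (ENSMUSG00000027641.7, chr2:156971629-157030270, minus strand) had a single peak within 50 kb, chr2:157029844-157030043, at 305 bp downstream of the TSS of Rbl1-001. Most of it lay in the first intron, with its upstream end over the end of the first coding exon. The start that RefSeq and Rbl1-003 share placed it at 327 bp, so for *Rbl1* both annotations gave a downstream position. The peak and the region around the RefSeq start (chr2:157030241-157030440) are printed because each holds E2F letters.
Rbl1 peak: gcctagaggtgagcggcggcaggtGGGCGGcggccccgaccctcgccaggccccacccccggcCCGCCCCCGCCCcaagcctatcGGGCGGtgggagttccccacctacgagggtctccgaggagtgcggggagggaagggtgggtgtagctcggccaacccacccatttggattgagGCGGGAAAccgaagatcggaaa
Rbl1 start: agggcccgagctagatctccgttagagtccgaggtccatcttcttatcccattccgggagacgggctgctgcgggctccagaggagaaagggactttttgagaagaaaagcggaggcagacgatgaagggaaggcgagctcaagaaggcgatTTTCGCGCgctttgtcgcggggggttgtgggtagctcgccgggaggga

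The E2F letters under the peak began at 383 bp from the TSS of Rbl1-001, and those at the start began at -40 bp from that TSS, outside the peak. No other gene-proximal peak of the 9 had E2F letters, which were in 3.27% of all gene-proximal peaks.

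*Rbl2* encodes p130, the pocket protein of resting cells and of the DREAM complex. The gene (ENSMUSG00000031666.8, chr8:93593956-93647743, plus strand) had 2 separate gene-proximal peaks. The first, chr8:93593861-93594060, had its middle at 4 bp and covered the TSS of Rbl2-001. Its part up to 30 bases past the start, chr8:93593861-93593985, is printed here, and the SP1 letters at 9 bp downstream are in capitals.
Rbl2 peak to the start: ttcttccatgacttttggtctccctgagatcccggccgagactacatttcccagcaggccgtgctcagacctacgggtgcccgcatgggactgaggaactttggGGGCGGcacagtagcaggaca

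The rest of this peak held CHR letters at 57 bp. The second, chr8:93594551-93594750, was in the first intron, 657 bp from the TSS of the short transcript Rbl2-002. It had 50.0% GC and 8 CpGs, below the lower quartiles of 61.5% and 14 over gene-proximal peaks, and was the only one of the 9 without SP1 letters. More than 1 gene-proximal peak was listed for 25.5% of protein-coding genes with any, and for 2 of the 7 here. Another peak, at the TSS of *Aktip*, was 18.9 kb from the start of a retained-intron transcript of *Rbl2*.

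Measured by middle, the nearest peaks of the 7 genes ranged from -124 to 347 bp with a median of -89 bp. Over the 8850 protein-coding genes with a gene-proximal peak the median was -32.5 bp (quartiles -73.0 and 0.0 bp). *Cdkn1a*, *Cdkn1b*, *Cdkn2d* and *Rb1* lay between 150 and 50 bp upstream, where 29.0% of those genes had their nearest peak. By RefSeq starts the share was 30.5% of 6206 genes, and the range held *Cdkn1a*, *Cdkn1b*, *Cdkn2c* and *Cdkn2d*, 4 of the 6 genes here with a peak near such a start.

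The SP1 letters, which factors of the SP and KLF families bind in GC-rich promoters, were in 8 of the 9 gene-proximal peaks, beside 68.6% of 10073 such peaks. The 2 overlapping *Rb1* peaks both count here, and the matches of the farther one are also in the nearer one. NF-Y letters were in 2, those of *Cdkn1b* at -89 bp and *Rbl2* at 657 bp, beside 30.0%. CHR letters, which the MuvB core of DREAM binds, were in 1 (5.52% of all) and letters of the TATA box (TATAAA) in 1 (2.41%), both of *Rbl2*. No match to the letters of NRF1 (GCATGCGC), ETS (CCGGAAGT), YY1 (AAGATGGC), CREB, ZNF143 and THAP11 (ACTACAA) or the E-box (CACGTG) was found on either strand, and the shares of all gene-proximal peaks with them were 5.8, 9.5, 5.08, 3.35, 2.92 and 8.06%. A match is a description of the letters, not of a bound factor.

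Most promoters of these genes were rich in CpG, those without a listed peak included. The upstream start of *Cdkn1a* was the lowest among starts of their protein-coding transcripts and RefSeq starts. No other starts were measured. The CpG ratio is the number of CpGs over that which the C and G content would give, here from 500 bp before to 500 bp after the start of the longest transcript. It had a median of 0.848 over the 10 genes (SD over genes 0.257), and 0.556 over all protein-coding genes (quartiles 0.229 and 0.772). GC content had medians of 63.4% (SD over genes 8.07) and 55.0%. Genes with a gene-proximal peak had a median ratio of 0.764 and those without 0.296. *Cdkn1c* (0.882), the Arf start of *Cdkn2a* (0.971) and *Cdkn2b* (0.742) were all far above the latter value. The p16 start was at 0.537. Of genes with a ratio from 0.75 to 1, 74.8% had a peak, and of the 6326 at 0.75 or more, 1582 had none. *Rb1* had the highest ratio of the 10 at 1.05. For *Cdkn1a* the start with the peak had a ratio of 0.63 and the upstream start, without one, 0.126. Of protein-coding genes with a ratio below 0.25, 4.21% had a peak. These shares take the ratio at the start of the longest transcript and count a peak at any TSS of the gene. *Cdkn1a* is therefore among the genes with a peak, through its other start.

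**Figure D3:**
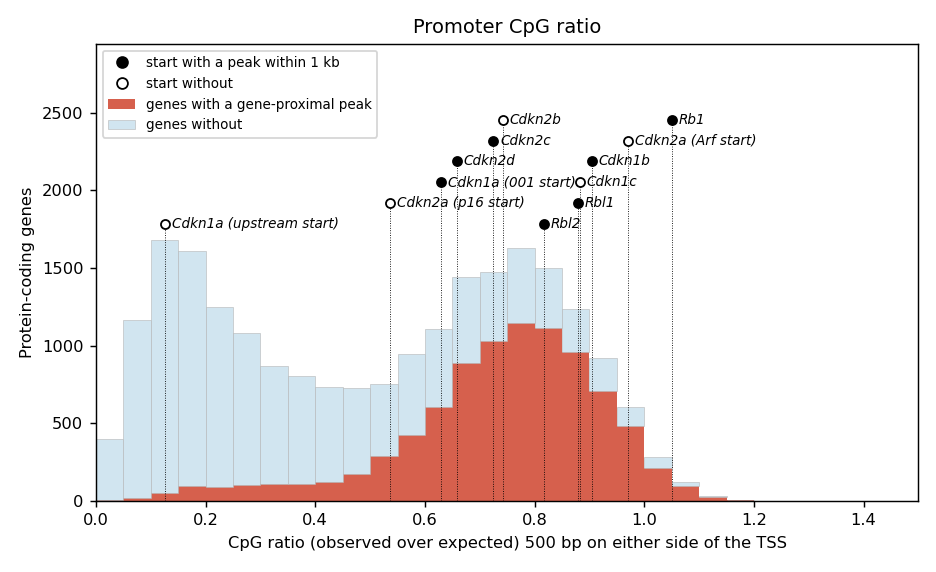
Number of protein-coding genes by CpG ratio (no unit) around the TSS of their longest transcript, in stacked bars for genes with and without a gene-proximal BAP1 peak. Circles mark starts of the 10 genes, filled where a peak lay within 1 kb of that start, and their height has no meaning. The open circles of *Cdkn1c* (0.882), *Cdkn2b* (0.742) and the Arf start (0.971) lie in the range where most genes have a peak.

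Other cell cycle genes, listed by family and pathway, mostly had a peak. Direct binding to the inhibitors was not required for a gene to be listed. Of 32 genes in 4 lists, 29 (90.6%) had a gene-proximal peak, beside 39.6% of all protein-coding genes. By list, these were 8 of 10 cyclins and kinases and 9 of 10 E2F and DP factors. The 6 MuvB and DREAM partners and the 6 genes listed under turnover of CIP/KIP proteins all had one. The number of TSSs and the CpG ratio of the listed genes were not compared with those of other genes. The median distance was -40.0 bp, beside -32.5 bp over all protein-coding genes with a gene-proximal peak. The exceptions were *Ccnd1*, *Cdk6* and *E2f2*. *Ccnd1*, which encodes cyclin D1, had its nearest peak at 23098 bp. For *Cdk6*, an INK4 target, it was at -1695 bp, and for *E2f2*, an activator E2F, at 2608 bp. The lists had 43 gene-proximal peaks. Of the 29 genes, 14 had more than 1, and letters shared by any overlapping peaks count more than once. E2F letters were in 5 (11.6%) and CHR letters in 7 (16.3%) of the peaks, beside 3.27 and 5.52% of all gene-proximal peaks. NF-Y letters were in 16 (37.2%) and SP1 letters in 35 (81.4%), beside 30.0 and 68.6%. E-box letters were in 4, those of NRF1, YY1, CREB and ZNF143 with THAP11 in 2 each, and those of ETS and the TATA box in 1 each, the ETS share being 2.33% beside 9.5%.

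**Figure D4:**
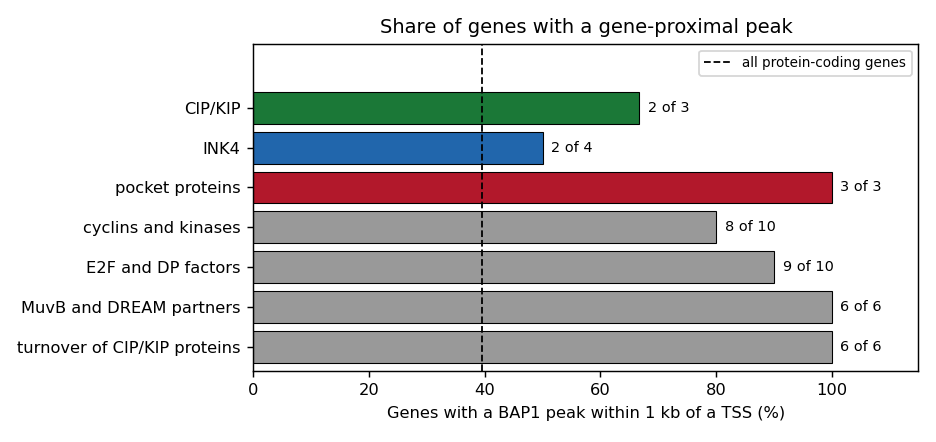
Share of genes in percent with a BAP1 peak within 1 kb of a TSS, for the 3 groups of inhibitors and pocket proteins (coloured bars) and the 4 lists of other cell cycle genes (grey bars). Counts are at the bar ends, and the share of all protein-coding genes, 39.6%, is a dashed line. All bars end to the right of the line. Those of INK4 (2 of 4) and CIP/KIP (2 of 3) rest on so few genes that their lengths say little, and no test was run.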

How the data were processed

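BAP1 ChIP-Seq was performed once with each of 2 antibodies in Ba/F3 cells. The authors mapped reads with Bowtie 1.0.0 to mm9 and called peaks with MACS (1.4.2 in the submitters' processing notes) against input DNA. The deposited values are start and end positions in bp. The rule that joined both samples in 1 list is not given in the sources used here. Peaks were placed on GENCODE M1 and its NCBIM37 genome (mm9), outside the mitochondrial chromosome, in Python 3.11.15 with numpy 2.4.6. The middle of a peak is its start plus 100 bp. Distances were tested on simulated data against bedtools 2.31.1 and were equal in 3684 of 3684 cases. RefSeq promoters, whose table is of build GRCm38.p6, were located in NCBIM37 by exact match within 30 kb of the gene. This found 8 of the 10 genes, without *Rb1* and *Cdkn1c*. All 10 genes were named, with other genes as counts by list, those without a gene-proximal peak, and genes at whose TSS a described peak lay. Genes and lists were chosen with earlier results of these data known. Sequence at some of the sites described is not reported here. The Wilson intervals (scipy 1.17.1) cover counting error only. A gene without a listed peak is not shown to be unbound, since the caller's threshold and coverage are unknown.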

Additional observations from a re-analysis of the deposited data

How the results depend on the processing

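The count of 7 genes was the same with the nearest edge of the peak, protein-coding transcripts, windows of 500 bp, 2 kb and 5 kb, and peaks within 500 bp merged, and *Cdkn1c*, *Cdkn2a* and *Cdkn2b* were without a peak in each. With the longest transcript of each gene it was 6, without *Cdkn1a*, whose longest transcript starts upstream. With RefSeq starts, an alternative chosen after seeing the data, it was 6 of 8. The share of protein-coding genes was 37.6% with the longest transcript, 38.6, 40.4 and 42.5% with windows of 500 bp, 2 kb and 5 kb, and 42.6% with RefSeq starts over the 14585 genes that had one, where GENCODE TSSs gave 43.1% for the same genes. Gene-proximal peaks numbered 7 to 11 over the settings. A nearest peak was found for 8 genes within 20 kb and 10 within 100 kb. Over 250 bp on either side, the median CpG ratio was 0.883 and GC content 64.6%. No paired analysis was possible because the peak list pools both samples and no test was run. The depth is unknown, so the limit on weak sites cannot be given.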
